A study of Mus musculus with 12 samples.

Results

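Fibroblast-derived neurospheres were measured on 4 of the 12 arrays of this mouse series, and they are compared here by the origin of the fibroblasts. The adult side held the 2 arrays labelled as neurospheres from adult fibroblasts, replicate 1 grown with EGF and cAMP and replicate 2 grown with LIF. The embryonic side held the 2 arrays labelled as neurospheres from embryonic fibroblasts, replicate 3 grown with LIF and replicate 4 grown with LIF and cAMP. EGF is a mitogen for neural progenitors, cAMP is an intracellular second messenger, and LIF (leukaemia inhibitory factor) is a cytokine that acts through STAT3 and is used to keep mouse pluripotent cells undifferentiated. All 4 cultures were grown in a medium named MHM, and the mice were of strain C57BL/6. The other 8 arrays were 1 of neurospheres of the ganglionic eminence (GE, where ventral forebrain neurons are born) taken at embryonic day 14, 1 of adult skin fibroblasts, 1 of iPS cells (line 38C2), 1 of ES cells (line EB3), and 1 each of primary and secondary neurospheres grown from either line. The series title speaks of direct induction, and the labels name no factor that was introduced.

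The comparison asks how the age of the starting fibroblasts goes with the state of the spheres. It is limited by the media: both embryonic cultures had LIF and 1 of the 2 adult cultures did not, so origin and medium cannot be told apart in the comparison of the pairs. Adult replicate 2 and embryonic replicate 3 were both grown with LIF alone, and values of this pair are given beside the comparison of the pairs where they bear on it. It has 1 array a side and no test. The labels do not say whether the 2 arrays of a side came from separate cultures or animals, and the embryonic fibroblasts themselves were not analysed here. The p-values therefore reflect how these arrays vary, which may be technical in part. All values are array signals, scaled so that the 2%-trimmed mean is 100 on every array. Differences are means of log2(signal + 5), adult minus embryonic. On the 12 arrays 40.5% to 49.1% of the probe sets reached a signal of 20.

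Neurospheres are aggregates of dividing neural stem cells and their progeny that grow in suspension, marked by genes such as Sox1, Sox2, Nes, Fabp7, Hes5 and Olig2. The core of the pluripotency network is formed by Pou5f1, Sox2 and Nanog, with Klf4, Esrrb and Zfp42 in the naive state of mouse ES cells. The placenta is built largely from trophoblast, a lineage set apart from the embryo proper before implantation and marked by a clustered family of prolactin-related hormones, by placental cathepsins and by Tpbpa. Hox genes record position along the body axis in skin fibroblasts as well as in the spinal cord.

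Against these markers the neural label was met in part. The mean level of the 29 neural stem cell genes tested was 6.18 and 6.14 log2 units on the adult arrays and 5.88 and 5.75 on the embryonic arrays. It was 8.31 in GE neurospheres, 5.16 in iPS cells and 4.59 in ES cells. All 4 arrays thus lay between the pluripotent cells and the reference neurospheres. The mean level of the 34 pluripotency genes was 6.81 and 8.22 on the adult arrays and 9.10 and 9.24 on the embryonic arrays, against 10.02 in iPS cells, 10.2 in ES cells and 4.06 in GE neurospheres. Pou5f1, the central pluripotency factor, had signals of 1787 and 2069 on the adult arrays and 2218 and 1981 on the embryonic arrays, 2818 in iPS cells, 2462 in ES cells and 0.7 in GE neurospheres. Both sides overlapped in it, near the pluripotent level.

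Of 13650 genes tested, 64 (0.469%) were called with limma at an adjusted p under 0.05. Lower in the adult-derived neurospheres were 55 genes (0.403%), among them a block of placental genes, the deiodinase gene Dio2, the Hox gene Hoxd13, and the Y-linked gene Kdm5d. Higher were 9 genes (0.0659%), among them Iapp, Cdh2 and Hoxb3. Without adjustment 1603 genes had p under 0.05, and the median difference over all genes was 0.0025. The arrays of the sides did not overlap in 7568 genes (55.4%), with both adult arrays above in 27.8% and below in 27.6%, so that non-overlap by itself is common with 2 arrays a side. The number of calls hung on each array: it was 13 without adult replicate 1, 49 without adult replicate 2, 10 without embryonic replicate 3 and 11 without embryonic replicate 4, in fits with fewer arrays.

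**Figure D1:**
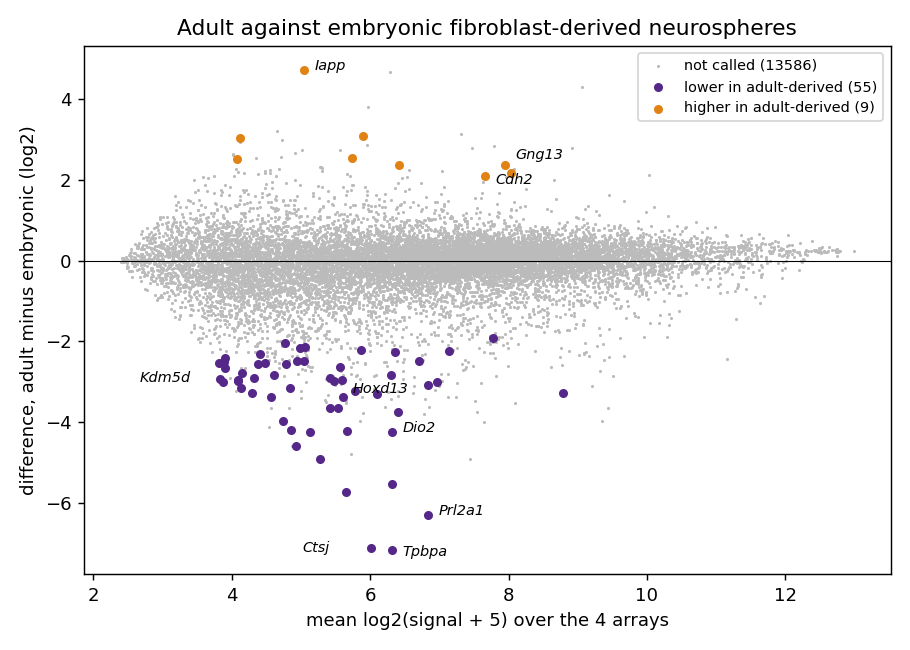
Difference between adult-derived and embryonic-derived neurospheres (log2, vertical axis) against the mean log2(signal + 5) over the 4 arrays (horizontal axis), with 1 point for each of the 13650 genes. The 55 genes called lower reach -7.18 (Tpbpa), while the 9 called higher reach 4.72 (Iapp).

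The embryonic pair was the more alike. Pearson's r over the genes tested was 0.975 between the embryonic arrays and 0.950 between the adult arrays, and 0.948 between adult replicate 2 and embryonic replicate 3, which share the medium. These are correlations across genes within pairs of arrays, and genes are not independent replicates. Among genes at a signal of 100 or more on 1 of the 2 arrays, 537 of 7350 differed by 2-fold or more between the adult arrays and 183 of 7375 between the embryonic arrays. On the LIF-alone pair 529 of 7442 did (7.11%), 189 higher in the adult-derived array (2.54%) and 340 lower (4.57%). The 2 adult arrays, grown in different media, thus stood about as far from each other as the LIF-alone pair of different origin did.

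The clearest group was placental. Of the 72 placental secreted and surface genes listed, 60 were on the array, 37 were tested, 13 were lower in the adult-derived neurospheres and 0 were higher. The 13 were Tpbpa, Ctsj, Plac1, Ceacam9, 1600025M17Rik and 8 members of the prolactin family. On the 10 arrays other than the embryonic pair, adult fibroblasts, iPS and ES cells included, the highest signal of any of them was 16.8. On the embryonic arrays they ranged from 27.4 to 1429.4, and on the adult arrays none exceeded 9.3. These 13 genes passed the filter of 20 only through the embryonic arrays, so their number among the 37 tested is a description of those arrays. The count was 5 without adult replicate 1, 7 without adult replicate 2, 6 without embryonic replicate 3 and 7 without embryonic replicate 4.

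Most of these genes sit together in the genome. Of the 55 genes called lower, 14 lay on chromosome 13, among them the 8 prolactin-family genes, Tpbpa and Ctsj. These entered the tests through the embryonic arrays alone, so nothing is read from the chromosome's share. The prolactin-family genes form 1 run of neighbours among the genes tested there, with no gene tested between them that was not called. Their order is Prl6a1, Prl8a9, Prl7b1, Prl7a1, Prl7d1, Prl7c1, Prl2a1 and Prl4a1. Genes of the family that did not reach the filter were not tested, so nothing is read from the run being unbroken. Tpbpa and Ctsj are neighbours on the same chromosome. The 250 bases before the start of these last 2 genes and of 2 prolactin-family genes are shown because the genes were near background on 10 arrays and bright on the same 2. They are RefSeq promoters of GRCm38.p6, each written along its gene. Tpbpa lies at chr13:60941937-60942186 (minus strand), Ctsj at chr13:61005926-61006175 (minus), Prl2a1 at chr13:27801405-27801654 (plus) and Prl4a1 at chr13:28015962-28016211 (plus). Capitals mark the longest run of letters shared within each pair.
Tpbpa: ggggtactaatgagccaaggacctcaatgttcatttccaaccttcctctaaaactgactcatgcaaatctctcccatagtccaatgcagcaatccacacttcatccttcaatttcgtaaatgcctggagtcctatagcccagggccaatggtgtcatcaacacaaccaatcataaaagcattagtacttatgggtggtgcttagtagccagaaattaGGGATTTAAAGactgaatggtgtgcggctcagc
Ctsj: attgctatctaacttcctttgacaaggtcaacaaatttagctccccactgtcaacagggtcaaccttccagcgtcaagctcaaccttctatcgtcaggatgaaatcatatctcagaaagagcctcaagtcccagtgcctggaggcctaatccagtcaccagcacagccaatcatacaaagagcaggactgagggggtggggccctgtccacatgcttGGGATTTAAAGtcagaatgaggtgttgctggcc
Prl2a1: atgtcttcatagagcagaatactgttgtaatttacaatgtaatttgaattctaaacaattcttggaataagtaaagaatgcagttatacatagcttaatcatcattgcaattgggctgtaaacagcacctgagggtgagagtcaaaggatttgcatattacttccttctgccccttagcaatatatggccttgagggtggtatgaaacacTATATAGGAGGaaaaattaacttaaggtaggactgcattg
Prl4a1: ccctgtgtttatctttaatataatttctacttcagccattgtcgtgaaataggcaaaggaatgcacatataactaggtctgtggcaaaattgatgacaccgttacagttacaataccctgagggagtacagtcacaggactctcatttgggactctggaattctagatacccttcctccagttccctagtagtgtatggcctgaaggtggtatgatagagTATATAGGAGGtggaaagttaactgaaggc
Tpbpa and Ctsj shared GGGATTTAAAG, which begins 33 bases before the start in both. Prl2a1 and Prl4a1 shared TATATAGGAGG, which begins 40 and 30 bases before the start. Each of these runs of 11 letters, searched on both strands, is held by 9 of the 27025 promoters of the table (0.0333%). Beside the pair shown, holders of the first run include the related genes Cts6, Ctsr and Tpbpb. Those of the second include Prl2b1, Prl3d1, Prl3d2, Prl3d3, Prl7a1 and Prl7a2. The first run was in 2 of the 12 called placental genes that have a promoter there and in 0 of the 7 prolactin-family genes. The second run was in 3 of those 7. The runs were found by comparing these sequences, and a shared run is a description and not a site.

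Tpbpa, the classical marker of the spongiotrophoblast, had signals of 3.1 and 0.4 on the adult arrays and 1324.5 and 687.2 on the embryonic arrays, a difference of -7.18 (SE 0.44, adjusted p = 0.000377). Ctsj, a placental cathepsin, had 0.2 and 0.8 against 510.4 and 1132.7 (-7.12, SE 0.43, adjusted p = 0.000377). Both were bright on each embryonic array and at background on each adult array, but the order of the embryonic arrays was opposite. The hormone gene Prl2a1 had 8.1 and 7.6 on the adult arrays and 1429.4 and 709.9 on the embryonic arrays (-6.30, SE 0.43, adjusted p = 0.000707). Prl7b1 had 7.6 and 5.8 against 628.1 and 458.2 (-5.54, SE 0.32, adjusted p = 0.000377). Prl4a1, another hormone of the family, had 1.6 and 2.5 against 168.4 and 254.3 (-4.91, SE 0.40, adjusted p = 0.00271). The sides were far apart in each of the 3, and the signal of Prl4a1 alone was higher in embryonic replicate 4. Tpbpa, Ctsj, Prl2a1 and Prl7b1 kept their call in each alternative analysis that kept all 4 arrays. These alternatives refit the same arrays, and the genes passed the filter only through the embryonic pair, so they add no independent support.

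**Figure D2:**
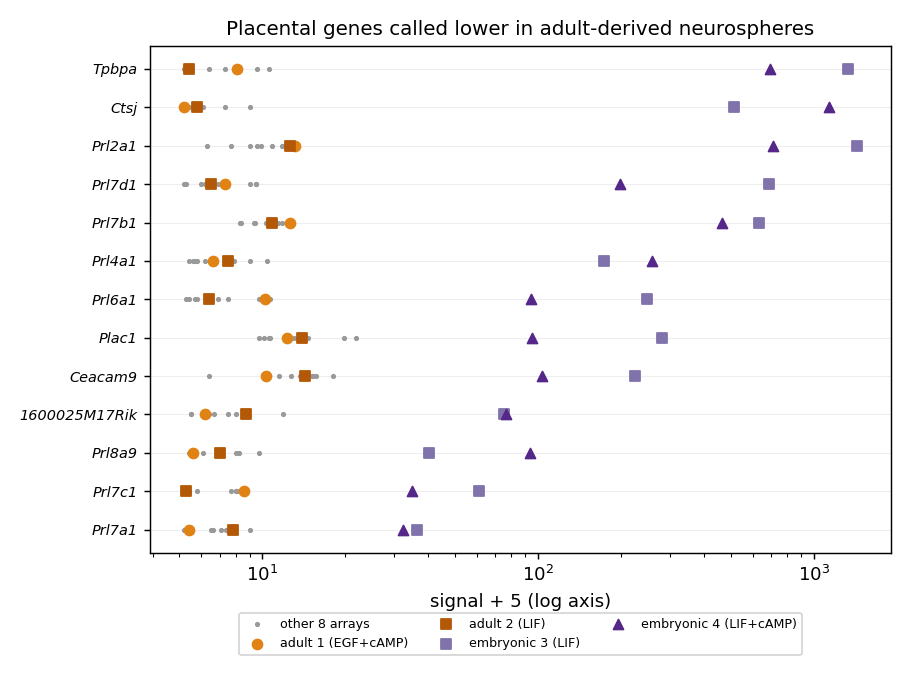
Signals of the 13 placental genes called lower in adult-derived neurospheres (signal + 5, log axis), with 1 row a gene, large symbols for the 4 fibroblast-derived arrays and grey dots for the other 8. On the embryonic arrays the signals run from 27.4 to 1429.4, and every other array stays at or below 16.8.

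The other placental calls had the same order. Prl7d1 had 2.3 and 1.5 on the adult arrays and 684.7 and 194.0 on the embryonic arrays (-5.75), and Prl6a1 had 5.2 and 1.4 against 243.9 and 89.6 (-4.25). Plac1, an X-linked gene named for its placental expression, had 7.3 and 8.9 against 276.6 and 90.3 (-3.65). In these 3 the embryonic replicate grown with LIF alone was the brighter one. The same held for 9 of the 13, while 4 were higher in replicate 4. Prl8a9, Prl7c1 and Prl7a1 stayed below 100 on both embryonic arrays, with differences of -3.29, -2.78 and -2.41. Ceacam9, a cell adhesion gene of the placenta, had 219.3 and 98.0 on the embryonic arrays against 5.3 and 9.3 (-3.65), and its neighbour Ceacam15 on chromosome 7, which was on no list, had 305.8 and 151.4 against 8.1 and 5.6 (-4.23). Genes of these families are near-identical in part. The probe sets reported for Tpbpa and Prl7a1 are of types that can read related transcripts, so their signal may be shared. Another probe set of Tpbpa, not of these types, had 0.7 and 1.8 on the adult arrays and 969.3 and 301.2 on the embryonic arrays.

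Other placental genes had the same order without a call. The hormone gene Sct (secretin) had 17 and 17.2 on the adult arrays and 357.8 and 105.0 on the embryonic arrays (-3.18, adjusted p = 0.0712), and Tpbpb had 0.7 and 0.7 against 70.5 and 19.5 (-2.92, adjusted p = 0.0712). Both embryonic arrays were above both adult arrays in each. The cathepsins Ctsq and Ctsr also had both embryonic arrays above, at 17.9 and 47.9 and at 13.5 and 99.3. On the LIF-alone pair the differences were -7.94 for Tpbpa, -6.47 for Ctsj, -6.83 for Prl2a1, -4.03 for Sct and -3.73 for Tpbpb.

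The transcription factors of trophoblast gave no call. Of the 14 tested 0 were called with limma, and 1 had an unadjusted p under 0.05. Cdx2, which starts the lineage, had 4.7 and 10.8 on the adult arrays and 14.4 and 11.9 on the embryonic arrays (-0.55, adjusted p = 0.774). Elf5, a factor of trophoblast stem cells, had 6.1 and 24.0 against 17.8 and 21.5 (-0.45, adjusted p = 0.767). Both were dim on all 4 arrays, and Elf5 overlapped between the sides. Tfap2c, a factor shared by trophoblast and germ cells, had 79.8 and 112.1 against 442.5 and 520.2 (-2.28, adjusted p = 0.489), and Ets2 had 112.5 and 143.9 against 279.2 and 261.6 (-1.06, adjusted p = 0.243). Tfap2c was as bright in the pluripotent cells, at 403.0 and 527.9.

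Several single genes called lower are known from stratified or barrier epithelium. They were picked after the values were seen, form no list and have no test as a group. Krt6a, a keratin of stratified epithelia, had 56.0 and 63.3 on the adult arrays and 299.0 and 306.0 on the embryonic arrays (-2.25, SE 0.30, adjusted p = 0.0312). Col17a1, a collagen that anchors basal keratinocytes, had 0.4 and 1.5 against 36.9 and 28.9 (-2.67, SE 0.34, adjusted p = 0.0231). Klk6, a secreted protease, had 11.1 and 13.8 against 96.0 and 175.7 (-2.96, SE 0.40, adjusted p = 0.0314). The arrays of a side were close together in Krt6a and Col17a1, while in Klk6 embryonic replicate 4 was clearly above replicate 3. The skin protease inhibitor Spink5 (-2.84), the cornified envelope genes Csta1 (-2.50) and Rptn (-2.57), Crct1 (-3.32), a neighbour of Rptn among the genes tested on chromosome 3, and the epidermal lipoxygenase Alox12e (-2.22) were called lower too. Calm4, Psca, Serpinb2, Serpinb11 and Tmprss11e were called lower as well, with differences from -2.96 to -2.14.

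The list of keratinocyte and epithelial genes as such gave no call. Of its 28 genes tested 0 were called with limma, 7 had an unadjusted p under 0.05, and both adult arrays were below both embryonic arrays in 17 (27.6% over all genes). Its median difference was -0.75, against 0.0025 over all genes, and it was smaller on the LIF-alone pair, at -0.29. Krt8, a keratin of simple epithelia, had 169.2 and 503.7 on the adult arrays and 1015.6 and 1607.4 on the embryonic arrays (-2.11, adjusted p = 0.303), and its partner Krt18 had 18.8 and 270.1 against 699.9 and 1221.5 (-3.52, adjusted p = 0.247). Adult replicate 1, grown without LIF, was the lowest of the 4 in both. The adhesion genes Cdh1 and Epcam were high on all 4 arrays, from 528.7 to 1395.4 and from 692.0 to 1355.2.

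Single genes of other roles were also lower in the adult-derived neurospheres. Dio2, the deiodinase that activates thyroid hormone, had 7.7 and 21.2 on the adult arrays and 331.1 and 354.2 on the embryonic arrays (-4.25, SE 0.38, adjusted p = 0.00444). Hbegf, a ligand of the EGF receptor, had 53.6 and 27.6 against 267.5 and 457.0 (-3.02, SE 0.49, adjusted p = 0.0481). In both genes the sides were well apart, while Hbegf, unlike most of these calls, was also at 34.2 to 264.7 on the other 8 arrays. It was the 1 called gene of the 25 tested in the list of EGF, FGF and MAPK feedback genes. Wdfy1, a phosphoinositide-binding protein of endosomes, had 28.3 and 41.5 against 343.1 and 314.9 (-3.08, SE 0.31, adjusted p = 0.00904), and the other 8 arrays lay between 92.0 and 503.4, so here the adult-derived pair was the one that stood apart. Slc6a14, an amino acid transporter, had 1.7 on both adult arrays and 55.3 and 181.7 on the embryonic arrays (-3.98). Il1rn, a natural inhibitor of interleukin signalling, had 7.5 and 20.6 against 177.6 and 151.2 (-3.24), and the prostaglandin-degrading enzyme gene Hpgd had 10.1 and 11.7 against 146.8 and 98.2 (-2.98). The steroidogenic gene Cyp17a1 had 1.0 and 0.7 against 40.4 and 55.5 (-3.16).

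Taking the 55 lower genes together, 42 had both adult arrays under 20, and 36 were under 20 on all 10 arrays other than the embryonic pair. Their differences ran from -7.18 to -1.93, and on the LIF-alone pair from -7.94 to -1.46. The sign of the latter is fixed by the arrays not overlapping.

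The genes called higher in the adult-derived neurospheres were 9. Iapp, the islet amyloid hormone, had 103.4 and 261.2 on the adult arrays and 2.0 and 0.9 on the embryonic arrays (4.72, SE 0.59, adjusted p = 0.0220), and its 3 other probe sets had the same sign. Cdh2, the neural cadherin, had 388.0 and 442.5 against 129.9 and 66.2 (2.10, SE 0.31, adjusted p = 0.0361). Iapp was near background on all 10 other arrays, at up to 17. Cdh2 was at 1107.9 in GE neurospheres and at 61.2 and 88.4 in the pluripotent cells, so the adult-derived pair lay between them. Adult skin fibroblasts had it at 1031.3, near the level of GE neurospheres, so its signal is not particular to neural cells. Gng13, a G protein gamma subunit, had 472.3 and 660.1 against 138.0 and 77.1 (2.38, SE 0.38, adjusted p = 0.0468), and Avil, an actin-binding protein of sensory neurons, had 447.4 and 690.2 against 96.8 and 145.9 (2.18, SE 0.34, adjusted p = 0.0468). Khdrbs3, a splicing regulator, had 249.3 and 143.7 against 29.6 and 35.7 (2.37). Its signal was 110.5 to 380.5 on the 8 arrays of other groups, so here the embryonic-derived pair was the one that stood apart. The adult arrays were above the embryonic arrays in Gng13, Avil and Khdrbs3, and adult replicate 2 was the brighter one in Gng13 and Avil. The liver genes Aadac (131.2 and 216.2 against 17.7 and 13.1) and Lect2 (26.1 and 74.2 against 1.4 and 0.8), Wdfy4 and Hoxb3 made up the rest. On the LIF-alone pair the differences of the 9 ran from 1.73 to 5.25. Without adult replicate 1, adult replicate 2, embryonic replicate 3 or embryonic replicate 4 the number called higher was 3, 4, 1 or 0.

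Large values on the adult side also came without a call. The transcription factor Zic1 had 254.7 and 591.7 on the adult arrays and 9.9 and 11 on the embryonic arrays (4.67, SE 1.32, adjusted p = 0.215), and adult fibroblasts had 255.7. The fit takes its spread from all pairs of arrays, and Zic1 was at 29.2 and 932.5 in the primary neurospheres of iPS and ES origin. Hbb-y, an embryonic globin, had 5046.2 and 1102.4 against 239.3 and 54.4 (4.30, adjusted p = 0.0773), and its 2 other probe sets had the same order. All 4 arrays were above the other 8, which were at or below 8.0. On embryonic replicate 4 the other probe sets of Hbb-y had only 49.8 and 15.7. Slc38a5, an amino acid transporter, had 1489.4 and 1078.1 against 288.3 and 109.7 (2.79, adjusted p = 0.0583), likewise with no more than 10.9 elsewhere.

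The pluripotency genes gave a graded picture with no call. Of the 34 tested 0 were called with limma, 7 had an unadjusted p under 0.05, and their smallest adjusted p was 0.201. Both adult arrays were below both embryonic arrays in 26 of the 34 (27.6% over all genes) and above in 0, with a median difference of -1.62. Adult replicate 1, the array without LIF, was the lowest of the 4 in 27 genes, and in 23 the order was adult replicate 1, adult replicate 2, then both embryonic arrays. These orders were not counted over all genes, so the 27 and 23 describe this list only. On the LIF-alone pair, where the medium was the same, 16 of the 34 were lower in the adult-derived array by 2-fold or more (4.57% over all genes), 0 were higher, and the median difference was -0.96.

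Nanog had signals of 145.2 and 401.6 on the adult arrays and 1453.7 and 1844.9 on the embryonic arrays (-2.73, SE 1.79, adjusted p = 0.611). Zfp42, a marker of naive pluripotency, had 5.2 and 79.1 against 346.1 and 475.5 (-3.81, SE 1.79, adjusted p = 0.461). Sox2, which neural stem cells share, had 85.6 and 791.4 against 1825.8 and 2092.3 (-2.87, SE 0.78, adjusted p = 0.201). Adult replicate 1 was the lowest and the embryonic arrays were the highest in each of the 3, and Sox2 on adult replicate 1 was also far below GE neurospheres (3703.2). Klf4 had 130.6 and 339.7 against 980.7 and 1050.8 (-2.24, SE 0.62, adjusted p = 0.205), and Esrrb had 24.5 and 67.2 against 251.3 and 246.3 (-2.46, SE 0.75, adjusted p = 0.247). Dppa5a, high in ES cells, split the adult side, with 258.9 and 3587.5 against 5190.4 and 5424.5. Not all members were ordered in this way. Pou5f1 (-0.12), Trim28, a chromatin corepressor (0.09), and L1td1 (0.33) overlapped between the sides, and none of their signals was under 1597.8.

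**Figure D3:**
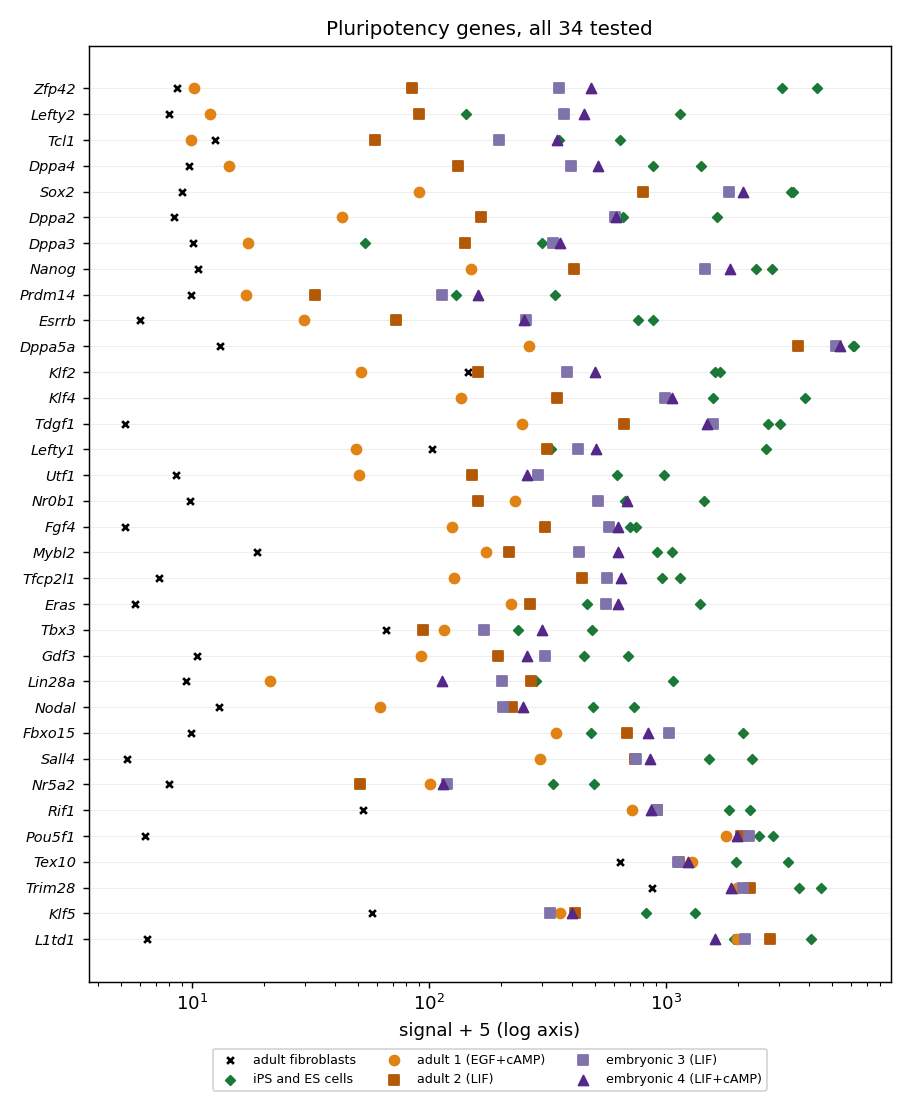
Signals of the 34 pluripotency genes tested (signal + 5, log axis), with 1 row a gene ordered by the difference, for the 4 fibroblast-derived arrays, adult fibroblasts, iPS cells and ES cells. Adult replicate 1 is the lowest of the 4 in 27 rows, which was not counted over all genes. The rows at the bottom, from Pou5f1 on, show the sides overlapping.

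The spread used in these tests includes the iPS- and ES-derived pairs, which differ strongly in the same genes. Nanog, for example, was at 0.2 and 648.0 in their primary neurospheres. In a fit of the 4 fibroblast-derived arrays alone 0 of the 34 pluripotency genes were called and 21 had an unadjusted p under 0.05, where 2572 of all 13650 genes did. Without adult replicate 2, 1 pluripotency gene was called lower.

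The neural stem cell genes gave no call, and values lay in both directions. Of the 29 tested 0 were called with limma and 9 had an unadjusted p under 0.05. Both adult arrays were above both embryonic arrays in 11 and below in 3, where 27.8% and 27.6% of all genes were, so that the number without overlap was not above that of all genes. The median difference was 0.33, and 0.43 on the LIF-alone pair. Fabp7, the lipid-binding protein of radial glia, had 411.2 and 517.5 on the adult arrays and 79.8 and 48.1 on the embryonic arrays (2.80, SE 0.50, adjusted p = 0.0676), against 7196.6 in GE neurospheres. Hes5, a Notch target that holds progenitors undifferentiated, had 59.7 and 31.1 against 0.7 and 1.9 (2.95, adjusted p = 0.118), and 1859.3 in GE neurospheres. The adult arrays were above in both, and all 4 arrays were well below the reference. Sox1 had 287.0 and 272.3 against 65.5 and 47.2 (2.23), Sox11 had 1148.9 and 557.4 against 272.1 and 142.6 (1.99), and the intermediate filament gene Nes had 200.6 and 155.7 against 71.5 and 79.3 (1.18). Dll1, a Notch ligand, had 127.9 and 84.0 against 47.9 and 44.1 (1.09).

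Olig2, a factor of ventral and oligodendrocyte progenitors, was ordered the other way, with 25.8 and 36.1 on the adult arrays and 141.3 and 115.5 on the embryonic arrays (-1.90, SE 0.35, adjusted p = 0.0728). Ptprz1, a receptor phosphatase of glial progenitors, had 188.5 and 43.5 against 553.4 and 476.5 (-2.42, adjusted p = 0.123). Cspg4 (NG2), a surface marker of oligodendrocyte precursors and pericytes, had 35.2 and 29.4 against 198.5 and 138.7 (-2.20, adjusted p = 0.0512). In all 3 both embryonic arrays were above both adult arrays. Sparcl1, an astrocyte gene, was the 1 call among 20 astrocyte and radial glia genes, with 2.1 and 13.4 against 67.5 and 57.0 (-2.55, SE 0.41, adjusted p = 0.0475, and -1.98 on the LIF-alone pair), far below GE neurospheres (3487.7). Of 27 neuronal genes 0 were called with limma and 7 had an unadjusted p under 0.05, with both adult arrays above in 10 and below in 4 (27.8% and 27.6% over all genes) and a median difference of 0.66, or 0.36 on the LIF-alone pair. The microtubule genes Dcx (43.8 and 36.1 against 6.2 and 9.6) and Map2 (215.8 and 139.9 against 54.2 and 26.4) were among those above. Pax6 was at or below 31.6 on all 4 arrays.

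**Figure D4:**
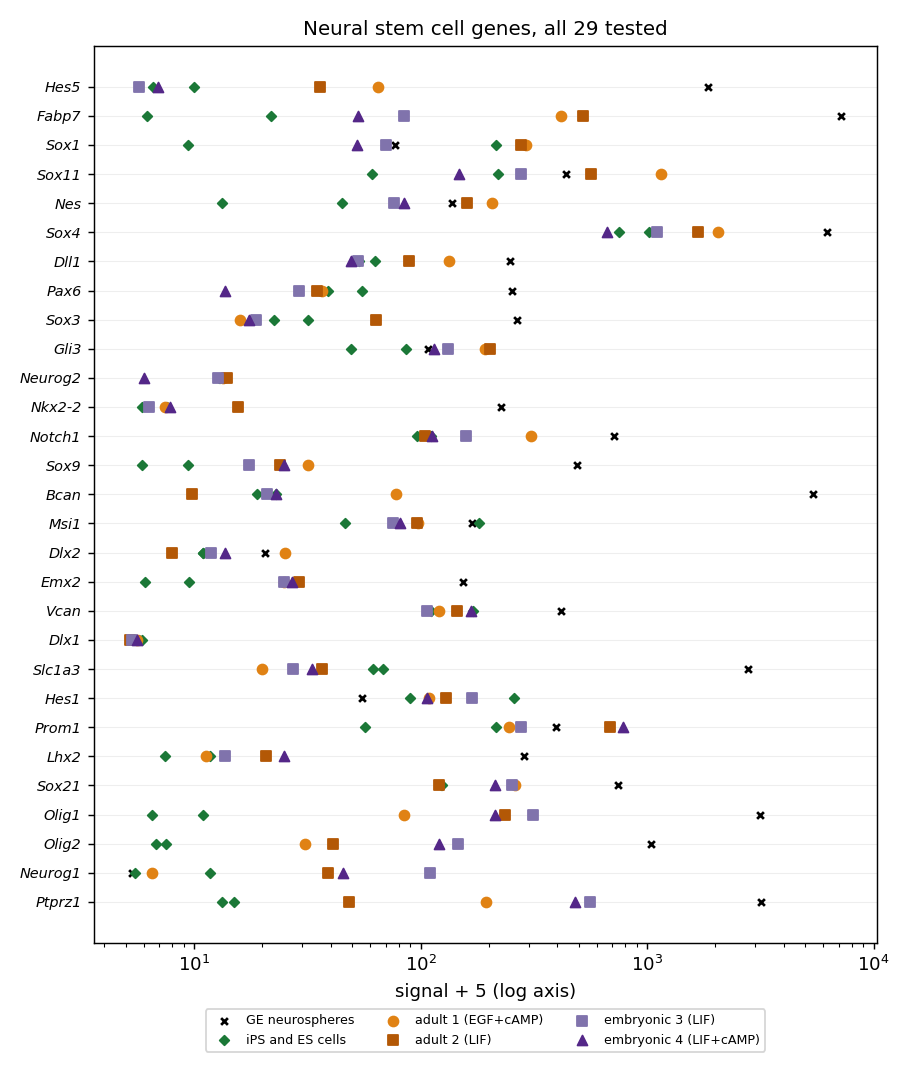
Signals of the 29 neural stem cell genes tested (signal + 5, log axis), with 1 row a gene ordered by the difference, for the 4 fibroblast-derived arrays, GE neurospheres, iPS cells and ES cells. Rows at the top, such as Hes5, Fabp7 and Sox1, have both adult arrays above both embryonic arrays, and Olig2 and Ptprz1 near the bottom have the reverse.

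Values of Hox genes differed by cluster and by position in it. Of the 39 listed, 33 were on the array and 27 were tested, and Hoxb3 was called higher and Hoxd13 lower in the adult-derived neurospheres. In the Hoxb and Hoxc clusters both adult arrays were above both embryonic arrays in 11 of 14 genes and below in 0 (27.8% and 27.6% over all genes), with a median difference of 2.15. In the Hoxa and Hoxd clusters, the 6 genes tested of paralog groups 9 to 13 had both adult arrays below in 5 and above in 0 (27.6% and 27.8% over all genes). Their median was -3.15, and the 1 with overlap was Hoxd9 (0.0030). Groups 1 to 8 of Hoxa and Hoxd did not share this order: the median was 0.51 over 5 Hoxa genes and 0.48 over 2 Hoxd genes. Over all groups the median was -0.06 for Hoxa and 0.0030 for Hoxd. Both adult arrays were then below in 4 of 8 Hoxa genes and above in 1, and below in 2 of 5 Hoxd genes and above in 2. The split by cluster and group was not tested. Hoxb3 had 185.8 and 82.6 on the adult arrays and 13.2 and 21.9 on the embryonic arrays (2.55, SE 0.42, adjusted p = 0.0497, and 2.27 on the LIF-alone pair). The other call, Hoxd13, the most posterior Hoxd gene, had 12.9 and 7.6 against 124.3 and 186.6 (-3.39, SE 0.48, adjusted p = 0.0346, and -3.36 on the LIF-alone pair). Hoxa11os, a transcript of the opposite strand at Hoxa11, was called lower with 1.7 and 0.7 against 136.6 and 152.0 (-4.59, SE 0.66, adjusted p = 0.0346).

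Neighbouring genes had the same order as these calls. Hoxa9 had 57.3 and 69.0 on the adult arrays and 511.0 and 588.4 on the embryonic arrays (-3.03, adjusted p = 0.310), and Hoxa10 had 30.8 and 22.6 against 286.5 and 314.6 (-3.28, adjusted p = 0.119). The 2 arrays of each side were close here, and both genes passed the threshold in the fit of the 4 fibroblast-derived arrays alone. Hoxc8 had 274.1 and 192.4 against 7.0 and 18.4 (3.81, adjusted p = 0.272), Hoxc9 had 80.0 and 64.3 against 3.1 and 3.4 (3.22, adjusted p = 0.203), and Hoxc4 had 261.0 and 100 against 1.0 and 2.2 (4.67, adjusted p = 0.129). In adult skin fibroblasts Hoxc8 was at 873.4, Hoxc9 at 163.3, Hoxc4 at 72.4, Hoxa9 at 155.1, Hoxa10 at 97.0 and Hoxd13 at 6.0. The adult fibroblasts thus had signal for these genes of both sides other than Hoxd13, and their Hoxa9 and Hoxa10 lay between the adult-derived and the embryonic-derived arrays. Hoxc8 and Hoxc9 were at or below 5.6 and 4.0 in the pluripotent cells, while Hoxa9 and Hoxc4 were at 145.3 and 61.4 in the iPS cells.

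**Figure D5:**
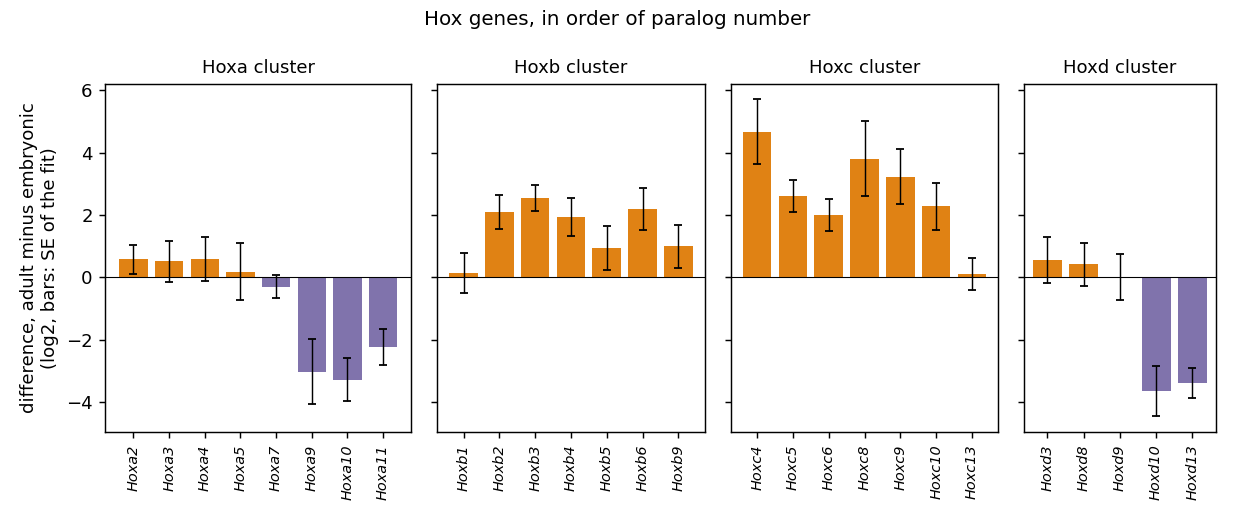
Difference between adult-derived and embryonic-derived neurospheres (log2) for the 27 Hox genes tested, by cluster and paralog number, with the SE of the fit as error bars. Bars above 0 are higher in the adult-derived pair and fill the Hoxb and Hoxc panels, while the last genes of the Hoxa and Hoxd panels reach -3.28 and -3.65.

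The cultures also differed in a Y-linked gene. Kdm5d, a histone demethylase of the Y chromosome, had 0.1 and 0.2 on the adult arrays and 39.9 and 34 on the embryonic arrays (-3.02, SE 0.37, adjusted p = 0.0194, and -3.11 on the LIF-alone pair). Eif2s3y had 1.4 and 0.5 against 146.0 and 131.4 (-4.60, SE 2.49, adjusted p = 0.529), and Uty had 0.2 and 0.8 against 45.7 and 46.9 (-3.22, SE 1.71, adjusted p = 0.520). All 3 were at background on the adult arrays and on the array of adult fibroblasts (3.3, 0.3 and 2.2). The wide errors of the latter 2 come with the iPS and ES lines, which had 4.4 and 665.9 for Eif2s3y. Kdm5d was at background in both lines, at 4.8 and 1.5, and its smaller error goes with that. Its call therefore does not mark it as the firmer difference. Xist, the RNA of the inactive X chromosome, was high on both sides, at 2342.2 and 2111.0 against 1640.0 and 1577.6 (0.47, adjusted p = 0.442). Expression from the Y chromosome thus went with the origin, and the part of the cells' sex in the other differences was not tested.

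Most macrophage markers were brightest on 1 of the 4 arrays. Of 19 macrophage genes tested 1 was called with limma, Cd68. It had 25.2 and 41.4 on the adult arrays and 150.1 and 204.8 on the embryonic arrays (-2.27, SE 0.36, adjusted p = 0.0475, and -1.74 on the LIF-alone pair). Cd68 was also at 97.6 in iPS cells and 75 in ES cells, above both adult arrays. Unlike most of the list, it was higher on embryonic replicate 4 than on replicate 3. The highest of the 4 arrays was embryonic replicate 3 in 15 of the 19, which was not counted over all genes and describes this list only. The mean level of the list was 3.98 and 4.30 on the adult arrays and 6.55 and 4.82 on the embryonic arrays. The lysozyme gene Lyz2 had 11 and 22.7 against 1433.5 and 42.3. Lyz1 had 0.3 and 13.9 against 2136.8 and 31.3. Lysozyme was thus bright on embryonic replicate 3 alone among the 4. Csf1r, the receptor that macrophages depend on, had 12.6 and 14.4 against 220.9 and 59.8. The part of these cells in the other results was not tested. Of the 13 placental genes called, 9 were higher on embryonic replicate 3 and 4 were higher on embryonic replicate 4. In RNA of whole cultures, fewer cells of a type and less RNA per cell cannot be told apart.

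Fibroblast and matrix genes gave no call in either direction. Of 39 tested 0 were called with limma and 4 had an unadjusted p under 0.05. Their median difference was -0.53, but 0.19 on the LIF-alone pair. There 11 of 29 were higher by 2-fold or more in the adult-derived array and 5 were lower (2.54% and 4.57% over all genes). The split lay within the adult side: the mean level of the list was 6.23 on adult replicate 1 and 7.95 on adult replicate 2, against 7.64 and 7.80 on the embryonic arrays and 10.7 in adult fibroblasts. The collagen gene Col3a1 had 286.2 and 1947.1 against 929.5 and 1186.4, with the embryonic values between those of the adult arrays. Col5a2 had 160.1 and 479.3 against 1528.7 and 1596.1 (-2.47, adjusted p = 0.191).

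Genes of the cell cycle were slightly higher in value on the adult side. Of 28 tested 0 were called with limma and 4 had an unadjusted p under 0.05. Both adult arrays were above in 20 and below in 0 (27.8% and 27.6% over all genes), with differences from -0.20 to 0.85. The median difference was 0.32, and 0.23 on the LIF-alone pair, where none of the 25 genes at 100 or more passed 2-fold. The 9 housekeeping genes tested had a median of 0.25, and 0.12 on the LIF-alone pair, with both adult arrays above in 6 and below in 2. A small shift of this kind was thus not particular to the cell cycle list. Rrm1, a subunit of ribonucleotide reductase, had 1017.1 and 951.7 against 703.8 and 419.7 (0.85, adjusted p = 0.265), and the proliferation marker Mki67 had 1085.3 and 717.0 against 553.4 and 448.6 (0.82, adjusted p = 0.348).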

How the data were processed

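Total RNA, extracted with Trizol per the labels, was measured on Affymetrix arrays. The authors deposited linear signal intensities, for which the submitters' processing notes name MAS5 and Affymetrix Expression Console 1.1. Scaling each array to 1 trimmed mean hides a change in total RNA. The number of arrays limits the precision.

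Samples were grouped by their labels, and the 12 columns were matched by name. Of 45101 probe sets, 34945 had 1 gene symbol in the platform annotation, 932 had several, 9160 had none and 64 were controls. Probe sets reaching 20 on at least 1 array were kept. A gene was its passing probe set with the highest mean. From the deposited intensity, log2(signal + 5) was tested with limma 3.58.1 in R 4.3.3 (2-sided, lmFit and a trended eBayes). All 12 arrays in 7 groups entered the fit, with 5 residual and 3.63 prior degrees of freedom and Benjamini-Hochberg adjustment. iPS and ES arrays were the 2 arrays of 1 group at each stage. With 2 arrays a side an exact permutation test cannot reach 0.05. For LIF alone, genes past 2-fold were counted where either array reached 100.

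Genes were named by rule: up to 20 called genes at either end whose arrays do not overlap, filled where fewer were called with uncalled genes reaching 100 on both arrays of the higher side, the called members and the 3 smallest p of each list, a set of markers, all Hox genes measured, and the 15 highest and 15 lowest for LIF alone. The text names part of these and a few further list members, chosen after their values were seen. The comparison, lists and members were chosen with earlier results of these data known. All other probe sets of the 8 called named genes that have them had the same sign. Promoters came from RefSeq tables (GRCm38.p6). The fit was tested on simulated data. Alternatives were quantile normalization, a common median, other pseudocounts and filters, averaged or separate probe sets, no trend, the line as a block, the 4 arrays alone, the LIF-alone arrays in the fit, and leaving out each array.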

Additional observations from a re-analysis of the deposited data

How the results depend on the processing

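The number of genes called depended on the settings. From 64 (9 higher and 55 lower in adult-derived neurospheres, 13 placental) it went to 42 (35 lower) with quantile normalization and 41 (33 lower) with a common median. It was 10 with a pseudocount of 1 (0 higher, 10 lower, 5 placental), 139 with a pseudocount of 20 (20 higher, 119 lower) and 10 with a filter at 100 (0 higher, 10 lower, 6 placental). A fit with a replicate block for the line, iPS or ES, gave 29 calls (3 higher, 26 lower), and the pairs compared here share no replicate number. The 4 fibroblast-derived arrays alone gave 15 (0 higher, 15 lower, 5 placental), and the LIF-alone arrays with the spread of the other groups gave 7 (0 higher, 7 lower, 5 placental). Leaving out each of the 4 arrays gave 10 to 49 calls, 0 to 4 higher, 9 to 45 lower, 5 to 7 placental lower and 0 to 1 pluripotency genes lower. No filter, averaged probe sets, separate probe sets and no trend gave total counts within 1.5 times the reported one. At a level of 20 in place of 100, 1139 genes passed 2-fold on the LIF-alone pair (437 higher, 702 lower). Of the genes named, 3 changed sign. Col3a1 went to 0.89 without adult replicate 1 (-1.86 without adult replicate 2) and 1.06 on the LIF-alone arrays, Elf5 to 0.24 (-1.15) and 0.35, and Socs3 to 0.040 (-0.35) and 0.17.

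The 64 genes called kept their sign under each of the 16 alternatives in which they were measured (40 were measured with the filter at 100), which the lack of overlap between the sides largely fixes. Every leave-one-out fit called 6 of them, namely Ctsj, Prl2a1, Prl7b1, Tpbpa, Prl4a1 and Ceacam15. Most calls rest on adult signals under 20, where array signals are noisy and the difference depends on the pseudocount.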

Other observations

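Immune and metabolic genes that the comparison above did not describe were lower in value on the adult side, without a call. Of 22 interferon response genes tested 0 were called with limma, 7 had an unadjusted p under 0.05, and both adult arrays were below both embryonic arrays in 17 and above in 0 (27.6% and 27.8% over all genes), with a median difference of -1.04 that was -0.19 on the LIF-alone pair. H2-K1, a class I antigen-presenting molecule, had 267.7 and 554.4 on the adult arrays and 739.4 and 2136.5 on the embryonic arrays (-1.69, adjusted p = 0.280), and B2m, its light chain, had 759.3 and 842.2 against 1169.4 and 3436.2 (-1.32, adjusted p = 0.407). Embryonic replicate 4, which had cAMP beside LIF, was the highest in both. Of 20 glycolysis and hypoxia genes 0 were called with limma, 5 had an unadjusted p under 0.05, and 17 had both adult arrays below (27.6% over all genes), with a median of -0.80 that was -0.37 on the LIF-alone pair. Bnip3, a mitophagy gene induced by low oxygen, had 210.8 and 584.7 against 1552.5 and 2194.2 (-2.38, adjusted p = 0.317).

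Of 31 imprinted genes 0 were called with limma and 8 had an unadjusted p under 0.05. The growth factor gene Igf2 had 58.9 and 160.1 on the adult arrays and 650.6 and 601.6 on the embryonic arrays (-2.62, adjusted p = 0.565), while Mest had 174.1 and 828.4 against 131.5 and 69.7 (1.94, adjusted p = 0.354). The sides did not overlap in either gene, and the directions were opposite. Of 22 genes of the LIF and STAT3 response 0 were called with limma and 3 had an unadjusted p under 0.05. Socs3, the feedback inhibitor of STAT3, had 1306.1 and 1716.3 on the adult arrays and 1528.8 and 1822.4 on the embryonic arrays, with overlap, and its lowest value was on the array without LIF. Erdr1 separated adult replicate 2 from the rest. It had 1339.2 and 23.5 on the adult arrays and 2083.6 and 2893.3 on the embryonic arrays, and adult fibroblasts had 23.8.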
